A study of Homo sapiens with 6 samples.

Results

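The genes described here were 10 secreted signalling proteins of the antiviral and inflammatory response: the interferons IFNB1 and IFNL1, the chemokines CXCL10, CXCL11, CCL5, CXCL8, CXCL1 and CXCL2, and the cytokines IL6 and LIF. They were chosen by name as rows of the deposited table, out of 16571 gene symbols with a count, and the choice was made with their counts in these libraries known. They were part of the fit over all genes, and which of them passed its threshold is stated, but their values are given as a description. No single p-value is printed for them, and no call is read as support. Of the 10 genes, 9 had a row, and CXCL1 had none.

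RNA-seq had been performed on A2780, a human cell line derived from an ovarian cancer. Of the 6 libraries, 3 came from cells infected with lentivirus carrying pGIPZ-NC, the control form of a short hairpin vector, and 3 from cells infected with lentivirus carrying a hairpin against USP39 (shUSP39), a spliceosome protein. The study's methods place its USP39 hairpins in the same pGIPZ vector and describe stable lines selected with puromycin, so infection was shared by both groups, and selection too if these libraries followed those methods. The labels do not say which hairpin the shUSP39 libraries carried, or whether the libraries of a group came from separate infections. Any p-value then measures the spread between these libraries only. The labels were not checked against the targeted gene, because USP39 was not analysed here.

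Interferon-β, the product of IFNB1, is a type I interferon, and interferon-λ1, the product of IFNL1, is a type III interferon. Cells make both when sensors such as RIG-I and MDA5 meet double-stranded RNA, through transcription factors of the IRF and NF-κB families, and both interferons act on receptors that switch on interferon-stimulated genes. CXCL10 and CXCL11 attract T cells through CXCR3, and CCL5 attracts T cells and monocytes. CXCL8, CXCL1 and CXCL2 attract neutrophils and are textbook NF-κB targets. IL6 and LIF signal through gp130 receptors to STAT3.

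The libraries held between 28294819 and 32939264 counts. Some features of the table bear on genes with few counts. The number of gene symbols with a count was 15446 and 14890 in shUSP39 replicates 2 and 3, against 12662 to 12819 in the other 4 libraries. Genes can also be without a row although cells commonly use them: RELA, IL6ST and IFNAR2 had no row either, so a missing row was not read as absence of expression. Of the markers of ovarian carcinoma, the labelled tumour type, several were low. PAX8 had 0 to 6 counts and EPCAM 1 to 6 counts per library, and WT1 had no row. Of 4 markers tested, KRT18 was higher in shUSP39 (676 to 711 counts in pGIPZ-NC and 932 to 1075 in shUSP39) and KRT19 (616 to 836 and 51 to 68) and KRT8 (26 to 37 and 0 to 3) were lower. MUC16 had 1 to 5 counts in pGIPZ-NC and 6, 150 and 71 in shUSP39. The part of these differences in the results below was not tested. Leukocytes, which secrete many of these proteins in tissue, were not visible by their defining markers. Of 12 leukocyte markers 6 had a row. Their summed counts were 311 to 382 in pGIPZ-NC and 350 to 393 in shUSP39, nearly all from CD68, while PTPRC (CD45) had 0 to 7 and CD14 0 to 5 counts. All 9 fibroblast and endothelial markers had a row, and their summed counts were 33614 to 38938 in pGIPZ-NC and 13510 to 15232 in shUSP39. COL1A2 held most of these, and PECAM1 had 0 to 5 counts.

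The sequences upstream of 4 of the genes are shown first, since the values below set these genes apart: IFNB1 and IFNL1 as the interferons, and CXCL10 and CXCL11 as a pair of neighbouring interferon-inducible chemokine genes whose counts differed. Each is the 250 bases before the transcript start in RefSeq (GRCh38.p14), written 5′ to 3′ on the gene's strand. Capitals mark matches, on either strand, to the IRF core AANNGAAA, to the longer core of the interferon-stimulated response element (ISRE), which is GAAA, any 2 bases and GAAA again and so contains an IRF core, or to the NF-κB consensus. The windows are chr9:21077943-21078192 on the minus strand for IFNB1, chr19:39296157-39296406 on the plus strand for IFNL1, chr4:76023498-76023747 on the minus strand for CXCL10 and chr4:76036071-76036320 on the minus strand for CXCL11.
IFNB1: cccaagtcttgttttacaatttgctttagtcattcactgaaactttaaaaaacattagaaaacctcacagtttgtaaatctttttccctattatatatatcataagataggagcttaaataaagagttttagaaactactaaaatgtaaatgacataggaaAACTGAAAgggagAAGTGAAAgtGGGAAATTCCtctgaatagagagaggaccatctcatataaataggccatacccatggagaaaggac
IFNL1: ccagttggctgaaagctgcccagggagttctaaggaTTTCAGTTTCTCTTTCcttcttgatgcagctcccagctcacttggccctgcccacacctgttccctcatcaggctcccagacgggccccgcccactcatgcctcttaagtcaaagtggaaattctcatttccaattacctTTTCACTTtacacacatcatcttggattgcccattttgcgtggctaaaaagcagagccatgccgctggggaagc
CXCL10: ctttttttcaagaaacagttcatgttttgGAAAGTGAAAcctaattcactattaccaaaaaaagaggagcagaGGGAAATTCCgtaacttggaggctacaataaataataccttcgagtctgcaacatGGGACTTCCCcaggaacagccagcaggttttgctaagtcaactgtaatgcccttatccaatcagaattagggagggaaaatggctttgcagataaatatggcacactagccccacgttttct
CXCL11: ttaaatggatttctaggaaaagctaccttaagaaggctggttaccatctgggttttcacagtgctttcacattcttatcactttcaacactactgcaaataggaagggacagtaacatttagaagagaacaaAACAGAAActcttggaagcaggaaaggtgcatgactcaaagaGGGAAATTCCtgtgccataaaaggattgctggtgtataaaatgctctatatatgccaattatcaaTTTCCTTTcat

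Promoter windows of 300 bases (250 before and 50 after the start) were listed for 8 of the 10 genes, and CCL5 and LIF were not among them. The CXCL10 window held 1 ISRE core, from 221 to 212 bases before the start, and NF-κB matches at 2 positions. The IFNL1 window held 2 overlapping ISRE cores on the minus strand and 1 further IRF core. The CXCL11 window held no ISRE core, 2 IRF cores and 1 NF-κB match. In IFNB1, 2 IRF cores and 1 NF-κB match lay side by side between 89 and 57 bases before the start. The windows of CXCL8, CXCL1, CXCL2 and IL6 held no ISRE or IRF core. NF-κB matches numbered 2 overlapping ones in CXCL1, 2 overlapping ones in CXCL2, 1 in IL6 and 0 in CXCL8 and in IFNL1. The AP-1 motif TGANTCA was found in CXCL11 and CXCL8. Of all 35116 promoter windows of this length, 3.57% held an ISRE core, 22.8% an IRF core, 11.3% an NF-κB match and 7.71% an AP-1 match. The NF-κB consensus was GGGRNNYYCC, where R is A or G, Y is C or T and N is any base. A match is a string of letters and not a shown binding site. Sites that depart from these strings were not counted, so a window without a match may still hold one.

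**Figure D1:**
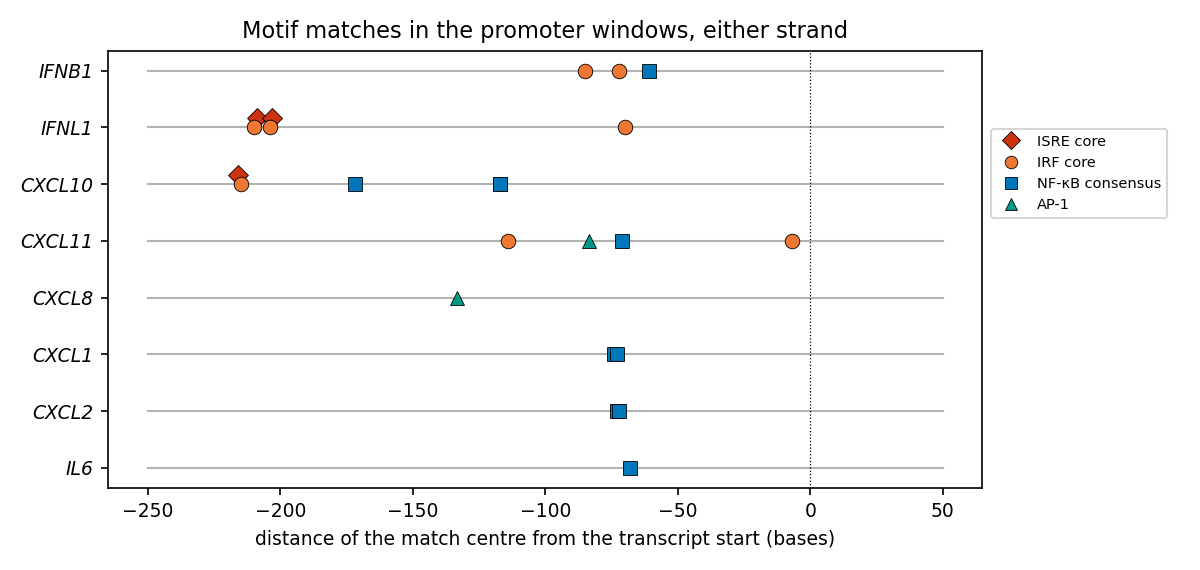
Motif matches in the promoter windows of 8 genes, drawn by the distance of the match centre from the transcript start in bases, with 1 line per gene and 1 symbol per motif. ISRE cores (diamonds) appear in IFNL1 and CXCL10 and in none of the other 6 windows.

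IFNB1 and IFNL1 were close to absent in the control cells and present in every shUSP39 library. IFNB1, a single-exon gene (chr9:21077103-21077941, minus strand, GRCh37), had 0, 4 and 0 counts in pGIPZ-NC against 50, 79 and 104 in shUSP39, each given in the order of replicates 1, 2 and 3. The groups did not overlap, and the only control counts were in replicate 2. Its level was 0.0405 ± 0.0701 CPM (counts scaled to the library total) in pGIPZ-NC against 2.57 ± 0.982 CPM in shUSP39 (SD, n = 3 per group), a log2 change of 5.76 (SE 0.64). Without pGIPZ-NC replicate 2 the fitted log2 change was 9.28, against a control group then at 0 counts, where the fitted value depends on the prior count. Without shUSP39 replicates 2 and 3 it was 5.07.

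IFNL1 (chr19:39787047-39789313, plus strand, GRCh37; 5 exons in its longest coding transcript) was at 0 counts throughout pGIPZ-NC. Its counts were 137, 108 and 75 in shUSP39 replicates 1, 2 and 3, or 3.48 ± 0.884 CPM (SD, n = 3). Against a floor of 3 counts over the control group, its pooled level was 109-fold higher in shUSP39. The exact counting interval of the ratio had a lower limit of 88.2 and no upper limit. Its close relatives IFNL2 and IFNL3, from which reads may not be told apart in full, had 0 counts in every pGIPZ-NC library. In shUSP39 replicates 1, 2 and 3, IFNL2 had 0, 11 and 5 counts and IFNL3 had 8, 10 and 4.

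The 3 shUSP39 libraries differed in which interferon gene took more counts. IFNB1 was lowest in replicate 1, where IFNL1 was highest, and highest in replicate 3, where IFNL1 was lowest. The sum of the pair was 187, 187 and 179 counts in replicates 1, 2 and 3. IFNL1 made up 73.3% of that sum in replicate 1 (exact Clopper-Pearson 95% interval 66.3 to 79.5), 57.8% in replicate 2 (50.3 to 64.9) and 41.9% in replicate 3 (34.6 to 49.5). The intervals of replicates 1 and 2 and of replicates 2 and 3 do not overlap. These intervals, like all counting intervals here, cover counting error only, since reads without molecular identifiers are not independent molecules. The floors cover counting error of the pGIPZ-NC counts alone.

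**Figure D2:**
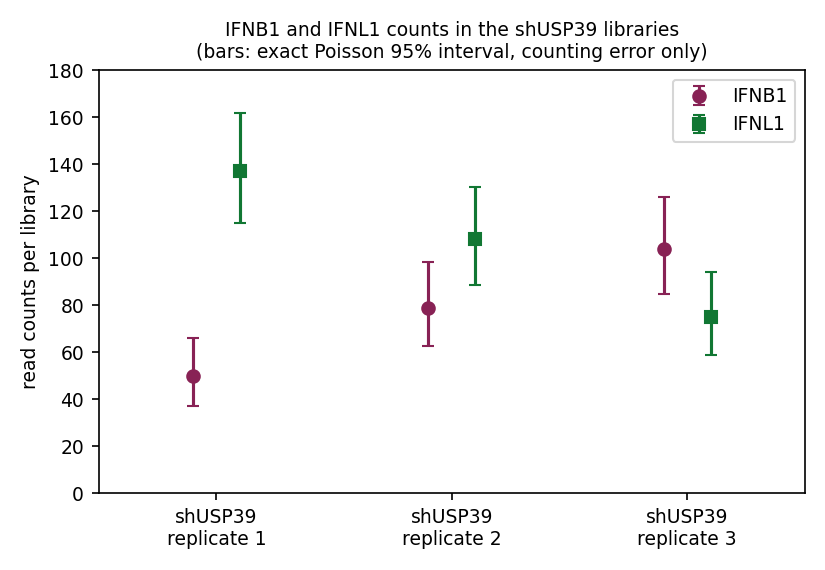
Read counts of IFNB1 (circles) and IFNL1 (squares) in each shUSP39 library, with exact Poisson 95% intervals as bars. IFNL1 stands at 137 in replicate 1 and 75 in replicate 3, where IFNB1 stands at 50 and 104.

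Of 20 further interferon genes, 18 had a row and only IFNE passed the filter on low counts. IFNE encodes interferon-ε, which reproductive tract epithelium is known to express without infection. It had 137, 158 and 77 counts in pGIPZ-NC and 91, 69 and 55 in shUSP39, a log2 change of -0.77 (SE 0.25), for which edgeR's quasi-likelihood test gave adjusted p = 0.0158. The libraries of the groups overlapped, and the call was lost without pGIPZ-NC replicate 1 (adjusted p 0.0609), pGIPZ-NC replicate 2 (0.122) or shUSP39 replicate 3 (0.0755). The 13 IFNA genes, near-identical single-exon copies, summed to 1, 4 and 1 counts in pGIPZ-NC and to 2, 44 and 32 in shUSP39 replicates 1, 2 and 3. In shUSP39 replicates 2 and 3, 12 of the 13 IFNA genes had a count, against 1 of 13 in each other library, and none exceeded 8 counts. IFNB1 lay above every IFNA gene in all 3 shUSP39 libraries, and in shUSP39 replicate 1 it had 50 counts where the IFNA genes together had 2. Whether the many low-count genes of replicates 2 and 3 have a part in the IFNA counts was not tested.

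CXCL10 differed most sharply from its neighbour CXCL11. CXCL10 (chr4:76942271-76944650, minus strand, GRCh37) had 0, 0 and 1 counts in pGIPZ-NC and 112, 116 and 119 in shUSP39. The shUSP39 libraries lay within 7 counts of each other, the narrowest relative spread among the genes that were higher. Its level was 0.0118 ± 0.0204 CPM in pGIPZ-NC against 3.802 ± 0.263 CPM in shUSP39 (SD, n = 3 per group). The ratio of pooled levels was 354.7, with an exact counting interval of 63.3 to 14050, since the control group held 1 count. The fitted log2 change was 7.99 (SE 0.57), and 9.88 without pGIPZ-NC replicate 3, the library with that count. The control group was then at 0 counts, where the fitted value depends on the prior count. In limma-voom with all libraries the log2 change was 7.33.

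CXCL11 lies 10.2 kb from CXCL10 (chr4:76954835-76962568, minus strand, GRCh37). It had 17, 17 and 13 counts in pGIPZ-NC and 12, 16 and 21 in shUSP39, so the groups overlapped. Its level was 0.501 ± 0.0364 CPM in pGIPZ-NC against 0.5402 ± 0.169 CPM in shUSP39 (SD, n = 3 per group), with a log2 change of 0.08 (SE 0.54). The counting interval of the ratio ran from 0.6995 to 1.63, so a change of the size seen in CXCL10 lay outside it. CXCL11 was thus the higher of the pair in every pGIPZ-NC library by counts. CXCL10 was the higher in every shUSP39 library, at 3.24 ± 0.224 CPM per kilobase of transcript against 0.365 ± 0.114 (SD, n = 3 per group).

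CCL5 (chr17:34198495-34207797, minus strand, GRCh37) had 0, 3 and 0 counts in pGIPZ-NC and 20, 23 and 21 in shUSP39. The groups did not overlap, and as in IFNB1 the only control counts were in replicate 2. The level was 0.0304 ± 0.0526 CPM in pGIPZ-NC against 0.701 ± 0.0666 CPM in shUSP39 (SD, n = 3 per group). The pooled ratio was 21.8, with a counting interval of 7.13 to 108.5. The fitted log2 change was 4.27 (SE 0.87), and 7.41 without pGIPZ-NC replicate 2, again against a control group at 0. The table holds 1 row for each gene, while RefSeq lists 2 transcripts for CCL5, CXCL11, CXCL8 and LIF and 3 for IL6, so the levels of these genes may be too low.

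The neutrophil chemokines were at the edge of detection in both groups. CXCL8 (interleukin-8) had 6, 0 and 1 counts in pGIPZ-NC and 0, 3 and 1 in shUSP39. CXCL2 had 5, 0 and 1 counts in pGIPZ-NC and 0, 7 and 0 in shUSP39. In both genes the groups overlapped and libraries of the same group differed by as much as the groups did. The counting interval of the shUSP39 to pGIPZ-NC ratio ran from 0.125 to 2.298 in CXCL8 and from 0.343 to 4.295 in CXCL2, so changes inside these limits were not detectable at this depth. CXCL8, CXCL1 and CXCL2 lie on chromosome 4 as well, and CXCL1, CXCL2 and their relative CXCL3 share near-identical sequence, so reads may be split or lost between them. CXCL3 had 0 to 1 counts in pGIPZ-NC and 0 to 7 in shUSP39.

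IL6, a pleiotropic inflammatory cytokine (chr7:22765503-22771621, plus strand, GRCh37), was at 0 counts throughout pGIPZ-NC and had 1, 8 and 7 counts in shUSP39 replicates 1, 2 and 3. Against the floor of 3 counts over the control group, the pooled level was 5.45-fold higher in shUSP39. The exact counting interval of the ratio had a lower limit of 3.94 and no upper limit. Of the 16 counts, 15 were in the libraries that had many more genes with few counts. Of 2773 gene symbols at 0 in all pGIPZ-NC libraries, counts were present for 333, 2277 and 1864 in shUSP39 replicates 1, 2 and 3. At least 7 counts were reached by 47, 363 and 177 of these symbols in replicates 1, 2 and 3. Without replicates 2 and 3 the IL6 comparison rested on 1 count. Whether the low-count genes of those libraries have a part in the IL6 counts was not tested. IFNL1 differs from IL6 in this respect, since its highest count was in replicate 1. At least 50 counts were reached by 2, 3 and 3 of the 2773 symbols in replicates 1, 2 and 3. IFNL1 was among them each time and was chosen with its counts known, so nothing is read from these numbers. Whether the low-count genes have a part in the IFNL1 counts was not tested either.

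**Figure D3:**
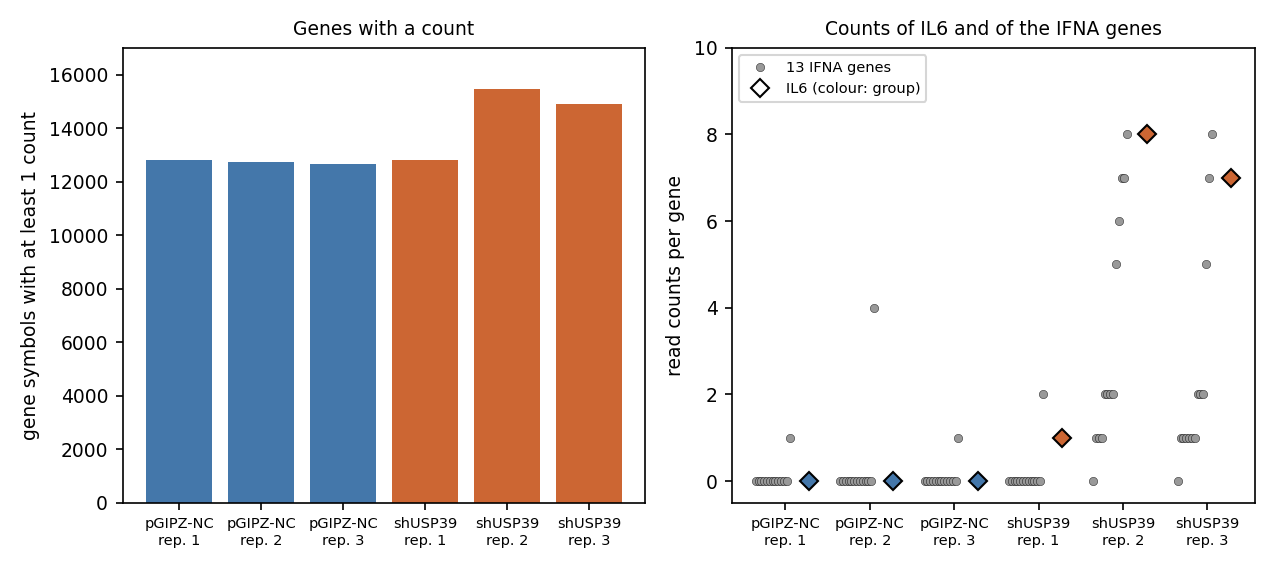
Left, gene symbols with at least 1 count in each library (bars, coloured by group). Right, read counts of IL6 (diamonds) and of each of 13 IFNA genes (grey points) in each library, where shUSP39 replicates 2 and 3 hold nearly all IFNA counts and 15 of the 16 IL6 counts.

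LIF, a gp130 cytokine known for keeping stem cells undifferentiated, was by far the most abundant of these genes and hardly differed between groups. It had 1134, 1186 and 943 counts in pGIPZ-NC and 1119, 1189 and 1146 in shUSP39. The groups overlapped, at 34.8 ± 1.37 CPM in pGIPZ-NC against 37.8 ± 2.28 CPM in shUSP39 (SD, n = 3 per group). Its log2 change was 0.09 (SE 0.08). Across the 6 libraries, the log2 levels most like those of LIF were those of VDAC1 (Pearson's r 0.99), TCF19, RAPGEF3, UNC5B and MUC5B (0.97). These are given as a description only, since the libraries differ in depth and may share steps of preparation.

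**Figure D4:**
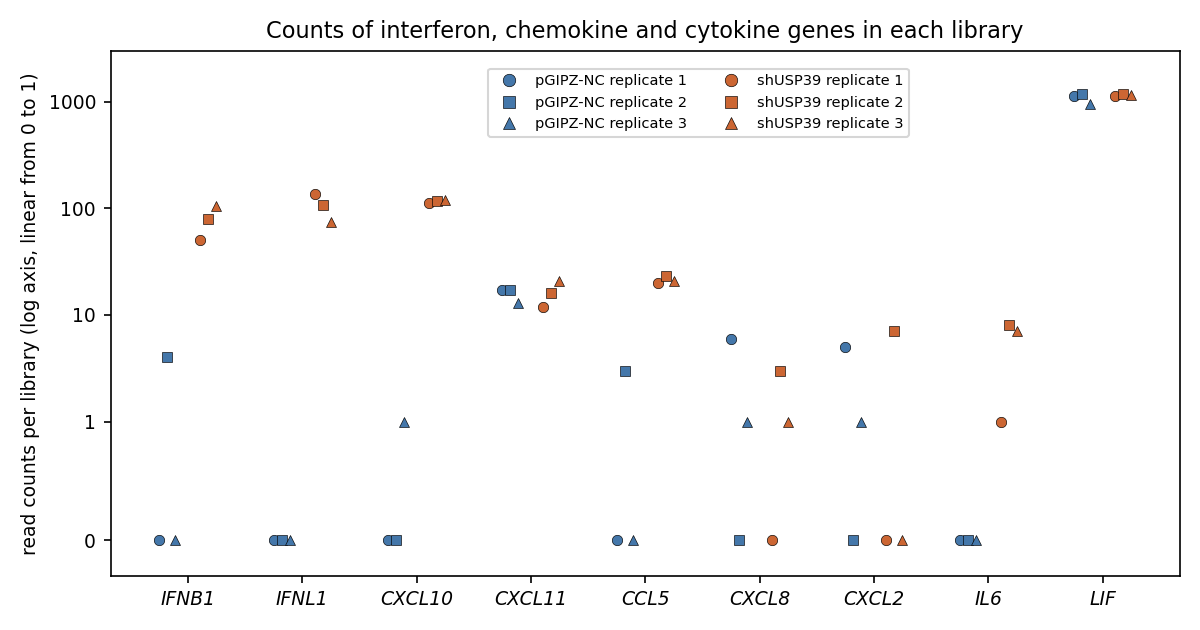
Read counts of the 9 genes with a row in each library, on a log axis that is linear from 0 to 1, with colour for the group and symbol for the replicate. IFNB1, IFNL1, CXCL10 and CCL5 stand at 20 counts or more in every shUSP39 library and at 4 or fewer in every pGIPZ-NC library, while LIF and CXCL11 overlap.

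In the fit over all 10695 genes, 4 of the 10 genes (IFNB1, IFNL1, CXCL10 and CCL5) were higher in shUSP39 at an adjusted p under 0.05 and over 2-fold, and none was lower. Of all genes tested, 4.53% were higher by this rule, and 6.81% passed it in either direction. Since the genes were chosen with these values known, nothing is read from that comparison. CXCL11 and LIF did not pass, IL6, CXCL8 and CXCL2 had too few counts to be tested, and CXCL1 had no row. In 5 genes, IL6 included, every shUSP39 library lay above every pGIPZ-NC library by counts and CPM. By scaled log2 CPM this held in 21.7% of the genes tested, a set that leaves out IL6.

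The order of the levels was compared per kilobase of the longest coding transcript. In pGIPZ-NC, LIF led at 8.999 ± 0.354 CPM per kilobase, followed by CXCL11 at 0.339 ± 0.0247 (SD, n = 3 per group), and the other genes were at or near 0 and overlapped. In shUSP39, LIF stood at 9.78 ± 0.591 CPM per kilobase (SD, n = 3), and IFNL1, CXCL10 and IFNB1 came next at 4.49 ± 1.14, 3.24 ± 0.224 and 3.07 ± 1.17 (SD, n = 3 per group). The ranges of IFNL1 and CXCL10 and of CXCL10 and IFNB1 overlapped, so their order is not set by these libraries. CCL5 followed at 0.5399 ± 0.0513 and CXCL11 at 0.365 ± 0.114 CPM per kilobase (SD, n = 3 per group), with ranges that came as close as 0.484 and 0.483. In bulk RNA, a low level in all cells and a high level in a few cells cannot be told apart.

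Genes around these proteins in the pathway were then examined from lists that, like the 10 genes, were chosen with earlier results of these data known. For reference, 33.6% of all genes tested passed an adjusted p under 0.05, 16.1% higher and 17.5% lower, and their median log2 change was 0.01. Each adjusted p below is that of edgeR's quasi-likelihood test, by Benjamini-Hochberg over all genes tested. Genes near 0 in pGIPZ-NC, among them CCL3, CCR1, OAS2, RSAD2 and IFI44, passed the filter on low counts only through their shUSP39 libraries. Their adjusted p-values are given as a description, and these genes are included in the numbers of genes higher.

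Other chemokines with enough counts were few. Of 38 further chemokine genes, 28 had a row and 3 were tested, of which 2 rose and 1 fell (median log2 change 1.502). CCL3, a monocyte attractant, was at 0 counts throughout pGIPZ-NC and had 42, 40 and 17 in shUSP39 (adjusted p 3.62e-06). Against the floor of 3 counts over the control group, its pooled level was 33.7-fold higher. CCL3 has near-identical copies, so its level is uncertain. CCL2, which attracts monocytes, had 23, 40 and 31 counts in pGIPZ-NC and 112, 78 and 77 in shUSP39, with a log2 change of 1.502 (SE 0.30, adjusted p 0.000250). CXCL16 fell from 110.8 ± 4.397 to 93.05 ± 4.599 CPM (SD, n = 3 per group), with a log2 change of -0.28 (SE 0.05, adjusted p 0.000198). CXCL9, the other textbook CXCR3 ligand, had 0 counts in all libraries except shUSP39 replicate 2, where it had 3.

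Of 22 other IL-6 family and inflammatory cytokines, 7 of the 18 with a row were tested, and 2 rose (median log2 change 0.24). IL11, a gp130 cytokine like IL6 and LIF, rose from 3.94 ± 0.187 to 9.07 ± 1.25 CPM (SD, n = 3 per group; log2 change 1.18, SE 0.16, adjusted p 1.85e-06). IL12A, a subunit of interleukin-12, rose from 1.86 ± 0.278 to 5.52 ± 1.31 CPM (SD, n = 3 per group; log2 change 1.54, SE 0.23, adjusted p 4.88e-06). TNF did not pass the filter, with 4, 0 and 0 counts in pGIPZ-NC and 5, 13 and 5 in shUSP39.

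Of 14 receptors of the 10 proteins, 9 had a row, 5 were tested and 2 rose (median log2 change 0.82). CCR1 had 4, 1 and 5 counts in pGIPZ-NC and 30, 25 and 26 in shUSP39 (log2 change 2.97, SE 0.65, adjusted p 0.000736). IL6R, the IL-6 receptor, rose from 1.36 ± 0.376 to 2.44 ± 0.198 CPM (SD, n = 3 per group; log2 change 0.82, SE 0.29, adjusted p 0.0319). The IL6R call was lost without pGIPZ-NC replicate 2 (adjusted p 0.152) or 3 (0.0539) and without shUSP39 replicate 1 (0.0961), 2 (0.0516) or 3 (0.0692). IFNAR1, a chain of the type I interferon receptor, stood at 202.5 ± 9.46 CPM in pGIPZ-NC against 198.4 ± 3.56 CPM in shUSP39 (SD, n = 3 per group; log2 change -0.05, adjusted p 0.359). IFNLR1 and IL10RB, the chains of the interferon-λ receptor, had log2 changes of 0.82 (SE 0.60, adjusted p 0.328) and 0.21 (SE 0.09, adjusted p 0.0683). IL10RB passed under upper-quartile scaling (adjusted p 0.0245) and with library size only (0.0381). LIFR, with 9, 6 and 5 counts in pGIPZ-NC and 21, 8 and 32 in shUSP39, was not tested.

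Upstream of the interferon genes, 22 sensors, adaptors, kinases and transcription factors were listed. Of these, 18 had a row and 13 were tested, with 6 higher and none lower (median log2 change 0.41). IFIH1, which encodes the double-stranded RNA sensor MDA5, rose from 4.10 ± 0.557 to 29.7 ± 1.46 CPM (SD, n = 3 per group; log2 change 2.84, SE 0.12, adjusted p 1.45e-16). DDX58, which encodes RIG-I, and DHX58, which encodes LGP2, rose by log2 changes of 1.59 (SE 0.12) and 1.68 (SE 0.13). JUN, an AP-1 subunit, rose from 83.2 ± 5.798 to 257.8 ± 5.196 CPM (SD, n = 3 per group; log2 change 1.61, SE 0.05). The adjusted p was 6.03e-10 in DDX58, 8.42e-11 in DHX58 and 1.71e-19 in JUN. Among genes named after their values were seen, the kinase gene TBK1 and the adaptor gene MAVS did not pass (adjusted p 0.652 and 0.3399), nor did IRF3 (0.428). The sensor gene TLR3, also named afterwards, did not pass and went the other way, with a log2 change of -1.52 (SE 0.67, adjusted p 0.0855). It had 19, 20 and 14 counts in pGIPZ-NC and 1, 8 and 9 in shUSP39.

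Of 16 NF-κB feedback targets all had a row and 15 were tested, with 9 higher and 1 lower (median log2 change 0.34). BIRC3, an inhibitor of apoptosis, rose from 4.24 ± 1.27 to 15.35 ± 0.448 CPM (SD, n = 3 per group; log2 change 1.83, SE 0.16, adjusted p 7.48e-10), and its paralog BIRC2 had a log2 change of 0.92 (SE 0.17, adjusted p 7.08e-05). IER3, an early response gene, rose from 88.01 ± 3.13 to 214.4 ± 3.57 CPM (SD, n = 3 per group; log2 change 1.26, SE 0.05, adjusted p 1.03e-17). TNIP1, a negative regulator of NF-κB, had 15, 19 and 15 counts in pGIPZ-NC and 45, 41 and 40 in shUSP39 (log2 change 1.36, SE 0.41, adjusted p 0.0111). The gene that fell was BCL3, named after its values were seen, with a log2 change of -0.66 (SE 0.07, adjusted p 1.73e-08).

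Of 18 interferon-stimulated genes listed as output of the interferon receptors, 15 were tested, with 12 higher and none lower (median log2 change 2.88). Whether their changes passed through these receptors was not tested. The 3 that did not pass, named after their values were seen, were USP18, IFI44L and STAT2. Their log2 changes were -0.05 (adjusted p 0.590), -0.11 (0.759) and -0.25 (0.651). MX1, not tested, had 17, 10 and 5 counts in pGIPZ-NC and 10, 32 and 1 in shUSP39. RSAD2 (viperin) had 4, 0 and 0 counts in pGIPZ-NC and 486, 571 and 536 in shUSP39, with a log2 change of 8.52 (SE 0.33, adjusted p 3.45e-17). OAS2 and OASL, of the oligoadenylate synthetase family, had log2 changes of 6.74 (SE 0.35, adjusted p 2.01e-14) and 5.94 (SE 0.17, adjusted p 8.41e-20). IFI44 had 4, 0 and 0 counts in pGIPZ-NC and 113, 107 and 78 in shUSP39, with a log2 change of 6.10 (SE 0.56, adjusted p 1.61e-09). Without pGIPZ-NC replicate 1, which held all control counts of RSAD2 and IFI44, their log2 changes were 12.05 and 9.62, and that of OAS2 was 7.499. For RSAD2 and IFI44 the control group was then at 0 counts, where the fitted value depends on the prior count. With only the highest row of each gene the log2 change of OAS2 was 7.61. OAS2 had 343, 352 and 202 counts in shUSP39 replicates 1, 2 and 3, and IFI44 was likewise lowest in replicate 3.

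Downstream of the IL-6 and LIF receptors, 6 of 14 listed STAT3-linked genes were tested, with 3 higher and 1 lower (median log2 change 0.297). SOCS3, a feedback inhibitor of gp130 signalling, rose from 31.4 ± 2.55 to 76.9 ± 1.59 CPM (SD, n = 3 per group; log2 change 1.27, SE 0.07, adjusted p 3.71e-14). JUNB and CEBPD rose by 0.16 (SE 0.04, adjusted p 0.00467) and 0.24 (SE 0.07, adjusted p 0.0134) on the log2 scale. SOCS2 had a log2 change of -0.36 (SE 0.11, adjusted p 0.0133). The CEBPD call was lost without pGIPZ-NC replicate 1 (adjusted p 0.0996) or shUSP39 replicate 3 (0.156), and the SOCS2 call without pGIPZ-NC replicate 2 (0.113) or shUSP39 replicate 1 (0.0572).

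**Figure D5:**
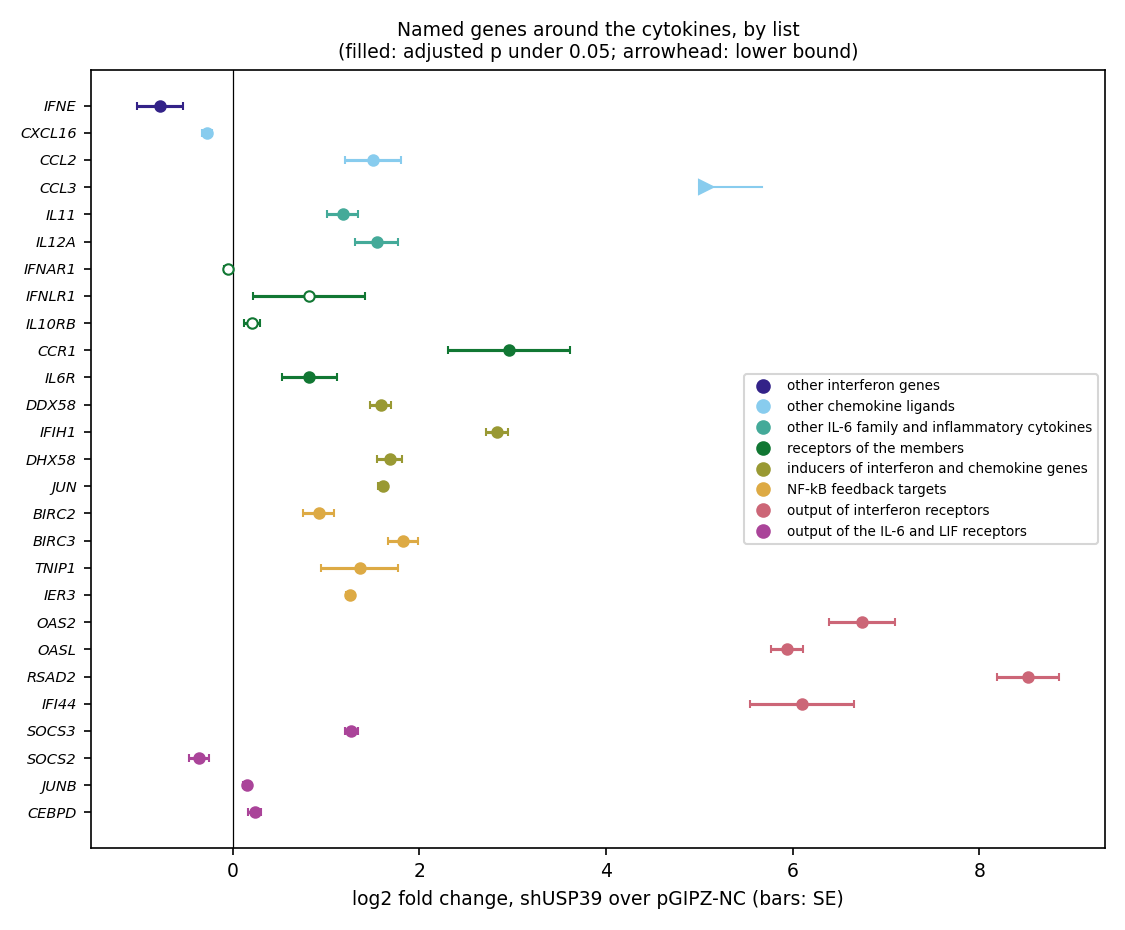
Log2 fold changes of shUSP39 over pGIPZ-NC with standard errors for the named genes around the cytokines, coloured by list, filled where the adjusted p was under 0.05. The 4 named interferon-stimulated genes reach 5.94 to 8.52, the sensor genes IFIH1, DDX58 and DHX58 1.59 to 2.84, and IFNAR1 lies at -0.05. The arrowhead of CCL3 stands at its ratio to the floor of 3 control counts.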

How the data were processed

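The authors deposited 1 table of raw counts for RefSeq messenger RNAs, with 1 column per library. The submitters' processing notes name hg19, HISAT2 and Cufflinks without roles, and the counter is not given in the sources used here. Counts may leave out reads that transcripts or gene copies share, and use of strand is not stated. The table also holds the authors' group means, fold changes, p-values and q-values, which were not used. No row had 0 counts in every library.

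Counts were summed from 21368 rows to 16571 gene symbols, of which 46 in the form of a date were replaced through the accession. Each of the 9 genes with a row had 1 row. CPM was computed from library totals. Low-count genes were removed by filterByExpr and libraries scaled by TMM. The rest were fitted with the robust quasi-likelihood test of edgeR 4.0.16 in R 4.3.3, with group as the only term. P-values were Benjamini-Hochberg adjusted, and the SE was the absolute log2 change divided by the square root of F. The fits were tested on simulated data. The 10 genes and all lists were chosen with earlier results of these data known. Ratios of pooled counts had exact conditional 95% intervals. Gene coordinates and transcript lengths came from GENCODE release 44 on GRCh37, and promoters from RefSeq on GRCh38.p14, with no conversion between them.

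Named genes were all 10 genes, the 4 largest changes past the threshold in each of 8 lists, receptors with a mean of at least 10 counts, and the 5 genes most like LIF. Others are marked as named afterwards, except genes given by their counts alone.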

Additional observations from a re-analysis of the deposited data

How the results depend on the processing

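The fit without shUSP39 replicates 2 and 3 together was chosen after seeing the data. With at least 10 counts in every library, which removes genes absent from 1 group, none of the 10 genes was called (0), since IFNB1, IFNL1, CXCL10 and CCL5 were no longer tested, against 471 of all genes, and 1 receptor and 6 interferon-stimulated genes passed. With no filter 5 of the 10 genes were called and 3 other interferon genes passed the adjusted p. Without shUSP39 replicates 2 and 3 together, the lone shUSP39 library is assumed to vary like the controls. The log2 changes in this fit were 5.07 in IFNB1, 10.06 in IFNL1, 7.88 in CXCL10 and 4.125 in CCL5. The IFNL1 value depends on the prior count, since its controls were at 0. In that fit 2244 of all genes passed the adjusted p alone, as did 0 other interferon genes, 1 receptor, 6 NF-κB targets and 2 genes downstream of the IL-6 and LIF receptors, TNIP1 (adjusted p 0.126), JUNB (0.216) and CEBPD (0.442) lost their calls, CXCL11 changed sign to -0.43 and LIF to -0.0084. The cause was not tested, and neither CXCL11 nor LIF passed under any alternative. SOCS2 did not pass with the highest row of each gene (adjusted p 0.335). Across the fits that left out 1 library, the number of other interferon genes past the adjusted p ran from 0 to 1 and of receptors from 1 to 2, all genes called ran from 677 to 836, and CXCL11 lay between -0.17 and 0.28. With the replicate number as a block 745 of all genes and 4 of the 10 were called. The 10 genes were chosen with their counts known, so no call of them under any of these settings is read as support. Same-numbered libraries did not deviate together (correlations of 0.0688, 0.00477 and 0.0216), not every library correlated best with its own number, and the numbers were not treated as pairs.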
